A study of Rattus norvegicus with 3 samples.

Results

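The organic anion transporters of the Slc22 family carry negatively charged drugs, toxins and metabolites across the membranes of the renal proximal tubule. The genes described here are Slc22a6, Slc22a7, Slc22a8, Slc22a12 and Slc22a13, taken as every probe set whose annotation names exactly 1 gene and that gene is one of them. All 5 genes were found, with 6 probe sets among the 14217 named genes of the array. Slc22a8 had 2 probe sets and each other gene had 1. None carried the suffix that marks a probe set shared between transcripts, and none named a further gene. All samples were proximal tubules from male Sprague-Dawley rats aged 7 to 8 weeks, with no allele, treatment arm or control tissue to compare them with. Every animal received 250 units of heparin 30 min before decapitation, and its kidneys were flushed in retrograde direction, first with saline (10 ml) and then with a collagenase solution (10 ml, 2 mg/ml). Cortex tissue stayed in the enzyme for another 20 min, and a 42.5% Percoll gradient separated the tubules. The 3 preparations were each measured on 1 Affymetrix array, and the labels do not say how many animals made up a preparation.

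In the proximal tubule cell, organic anion secretion starts at the basolateral membrane, on the blood side. The sodium pump holds sodium low inside the cell, a sodium-coupled carrier brings dicarboxylates such as alpha-ketoglutarate in, and OAT1 (Slc22a6) and OAT3 (Slc22a8) let the dicarboxylate out in exchange for an organic anion. The anion then leaves through exit carriers of the brush border, the membrane facing the urine. OAT2 (Slc22a7), URAT1 (Slc22a12) and OAT10 (Slc22a13) are relatives placed at other steps. URAT1 and OAT10 lie in the brush border and take up urate, and OAT10 also takes up nicotinate. In rats, OAT1 and OAT3 are known to be more abundant in the male kidney and OAT2 in the female kidney.

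The sequences just before the start sites of these genes are shown because the genes divide into those with signals far above the array median and those below it. RefSeq sequences of the GRCr8 assembly were at hand for 4 of the 5 genes, all but Slc22a6, and the 250 bases before each start are printed on the strand of the gene. Capitals mark every match to 4 motifs searched on both strands. They were the half-site of hepatocyte nuclear factor 1 (GTTAAT), an element of hepatocyte nuclear factor 4 (CAAAGTCCA), a palindrome bound by BCL6 and STAT5 (TTCNNNGAA) and a TATA core (TATAA). The first 2 sequences belong to genes with high signals, Slc22a8 at chr1:214927034-214927283 on the plus strand and Slc22a12 at chr1:213281381-213281630 on the minus strand. The other sequences belong to genes with low signals, Slc22a7 at chr9:22045248-22045497 on the plus strand and Slc22a13 at chr8:127811751-127812000 on the minus strand.
Slc22a8: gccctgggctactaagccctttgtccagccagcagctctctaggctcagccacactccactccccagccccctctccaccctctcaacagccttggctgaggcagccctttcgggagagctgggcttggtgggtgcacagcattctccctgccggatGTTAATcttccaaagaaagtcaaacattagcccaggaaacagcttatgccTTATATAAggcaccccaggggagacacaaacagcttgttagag
Slc22a12: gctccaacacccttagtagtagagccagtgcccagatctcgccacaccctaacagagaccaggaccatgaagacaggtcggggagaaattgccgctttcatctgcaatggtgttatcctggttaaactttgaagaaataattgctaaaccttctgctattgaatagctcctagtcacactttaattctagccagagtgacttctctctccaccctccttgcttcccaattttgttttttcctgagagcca
Slc22a7: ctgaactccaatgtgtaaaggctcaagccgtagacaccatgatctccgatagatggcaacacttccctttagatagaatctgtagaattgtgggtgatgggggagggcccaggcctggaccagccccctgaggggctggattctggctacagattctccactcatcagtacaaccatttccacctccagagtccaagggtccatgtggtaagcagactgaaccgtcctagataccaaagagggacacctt
Slc22a13: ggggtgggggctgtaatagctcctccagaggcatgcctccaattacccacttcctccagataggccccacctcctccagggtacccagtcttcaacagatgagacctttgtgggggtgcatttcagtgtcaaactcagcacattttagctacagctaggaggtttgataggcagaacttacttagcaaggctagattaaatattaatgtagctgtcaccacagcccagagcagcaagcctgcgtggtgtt

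The Slc22a8 sequence held the half-site GTTAAT 93 to 88 bases before the start, and a run of 2 overlapping TATA cores 43 to 36 bases before the start. Among 33465 rat promoters of the same length, 6.45% held the half-site and 24.0% a TATA core. The windows of Slc22a12, Slc22a7 and Slc22a13 held none of the 4 motifs. None of the 4 windows held the hepatocyte nuclear factor 4 element, present in 0.338% of all promoters, or the palindrome, present in 7.67%. A match is a run of letters and not a measured binding site, and whether the motifs relate to the signals was not tested. The bases G and C made up 56.0% of the Slc22a8 window, 46.0% of Slc22a12, 52.0% of Slc22a7 and 50.8% of Slc22a13.

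The arrays gave 31042 probe sets without the controls, with medians of 34.9 to 37.4 and 75th percentiles of 167 to 181, in arbitrary units of linear signal intensity. Each of the 9 measured proximal tubule markers exceeded the median of every array, as did 61.0% of all named genes. Their summed signal was 63246 to 69397. The thick ascending limb and endothelial lists also passed this line in full, so passing it does not set proximal tubules apart. Other cells were present too. Thick ascending limb markers summed to 13202 to 15649, with 5 of 5 above the median, endothelial markers to 632 to 1103, with 4 of 4 above, and leukocyte markers to 3082 to 5055, with 2 of 5 above. Collecting duct markers summed to 977 to 1099 (2 of 6 above), distal tubule markers to 804 to 1191 (2 of 3) and stromal markers to 399 to 479 (2 of 6). Podocyte markers summed to 87.5 to 138 (1 of 3), liver markers to 119 to 191 (0 of 5) and choroid plexus and brain markers to 37.8 to 40.4 (0 of 3). Single genes gave most of some sums, such as Cd74 for leukocytes (3011 to 4952) and Aqp3 for the collecting duct (808 to 940). A sum is thus not a measure of how many cells of a type were present. In these bulk preparations, fewer cells of a type and less RNA per cell cannot be told apart. The part of other cells in the transporter signals was not tested.

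Of the 5 transporter genes, 3 lay above the median of the non-control probe sets on all 3 arrays, beside 61.0% of all named genes. They were Slc22a6, Slc22a8 and Slc22a12, which also lay above the 75th percentile on every array, as did 36.4% of all named genes. Slc22a7 and Slc22a13 lay below the median on every array, beside 32.1% of all named genes. Probe sets differ in how well they bind their transcript, so the signals of different genes are not ranked against each other.

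Slc22a6, the basolateral exchanger OAT1 that takes up para-aminohippurate and many drugs, gave signals of 5288, 4055 and 4993 on arrays 1, 2 and 3. Arrays 1 and 3 lay close together and array 2 lay lower. The mean was 4779 ± 644 (SD, n = 3), and the highest array was 1.30 times the lowest. On each array the signal was 108 to 143 times the array median.

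Slc22a8, the basolateral exchanger OAT3 with a broader range of substrates, was read by 2 probe sets. Probe set 1368461_at gave 6519, 6001 and 6716 on arrays 1, 2 and 3, a mean of 6412 ± 369 (SD, n = 3). Array 3 was highest and array 2 lowest, with 1.12 times between them. Probe set 1385005_at gave 1122, 844 and 1018, a mean of 995 ± 141 (SD, n = 3), with array 1 highest, array 2 lowest and 1.33 times between them. Both lay above the 75th percentile on all 3 arrays, and they disagreed in signal size and in which array was highest. Where on the transcript each probe set lies was not examined.

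Slc22a12, the brush border urate exchanger URAT1 and target of uricosuric drugs, gave 2435, 2289 and 1821 on arrays 1, 2 and 3. Here array 3 was lowest, whereas the deposited signals of the basolateral exchangers were lowest on array 2. The mean was 2182 ± 321 (SD, n = 3), and the highest array was 1.34 times the lowest. The signal was 52.2 to 65.6 times the array median.

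Slc22a7, the carrier OAT2, which the liver also expresses strongly, gave 28.9, 34.5 and 20.7 on arrays 1, 2 and 3. Array 2 was highest and array 3 lowest, at 0.92 and 0.59 times the median of their arrays. The mean was 28.0 ± 6.93 (SD, n = 3). Signals of this size were also given by some genes that define other organs. The liver gene for albumin, Alb, gave 23.3, 14.6 and 16.7, and the choroid plexus gene Ttr gave 30.6, 31.5 and 21.3. Other genes of the liver and of the choroid plexus and brain lists spread widely. Their means were 1.59 for Otc, 1.64 for Snap25, 9.32 for Gfap, 31.3 for Fgb, 44.5 for Arg1 and 47.7 for Apob. Without detection calls, the Slc22a7 signal was not separated from background.

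Slc22a13, the brush border carrier OAT10, gave 12.2, 1.27 and 9.97 on arrays 1, 2 and 3. Array 2 stood below the others, and its signal lay under the 25th percentile of that array (10.3), while the other arrays lay just above theirs (9.82 and 9.23). The mean was 7.82 ± 5.79 (SD, n = 3), so the SD was 73.9% of the mean. The control probe sets for the bacterial trp gene reached 10.3, 5.58 and 1.38 on the same arrays. With a single probe set, the low reading of Slc22a13 has no second measurement on these arrays, and this holds for Slc22a6, Slc22a7 and Slc22a12 as well.

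**Figure D1:**
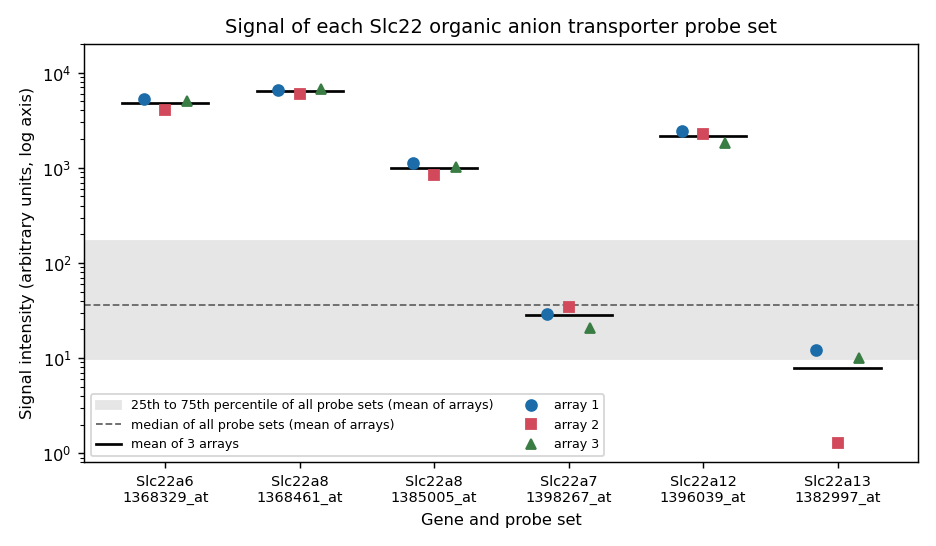
Signal intensity (log axis, arbitrary units) of the 6 probe sets on each of the 3 arrays, with the mean as a bar, the mean array median as a dashed line and the 25th to 75th percentile of all probe sets in grey. Slc22a6, both Slc22a8 probe sets and Slc22a12 lie above the grey band on all arrays, while Slc22a7 lies within it below the median and Slc22a13 reaches 1.27 on array 2.

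Differences between the preparations were read on the scale of log2(signal + 16), with each array centred on its own median. The range over the 3 arrays was 0.23 log2 units for Slc22a8, 0.35 for Slc22a12, 0.39 for Slc22a6, 0.39 for Slc22a7 and 0.72 for Slc22a13. None of the 5 genes reached a 2-fold range, beside 4.46% of all named genes. This is a count against a fixed fold with no test, since each preparation was a single array. The median range was 0.39 for the 5 genes and 0.34 for all named genes. The share of named genes with a smaller range was 30.2% for the brighter Slc22a8 probe set, 52.7% for Slc22a12, 58.1% for Slc22a6, 58.2% for Slc22a7 and 86.3% for Slc22a13. The second probe set of Slc22a8 had a range of 0.41, with 61.2% of named genes below it, so the probe sets of this gene lay on opposite sides of the middle. After quantile normalization the ranges were 0.20 for Slc22a6, 0.15 and 0.23 for the Slc22a8 probe sets and 0.40 for Slc22a12, which put Slc22a12 above Slc22a6. Without array 3 the range of Slc22a12 was 0.10 and that of Slc22a7 0.16. The range of Slc22a13 depends on the constant added before the log, since it was 2.55 with 1 added instead of 16.

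**Figure D2:**
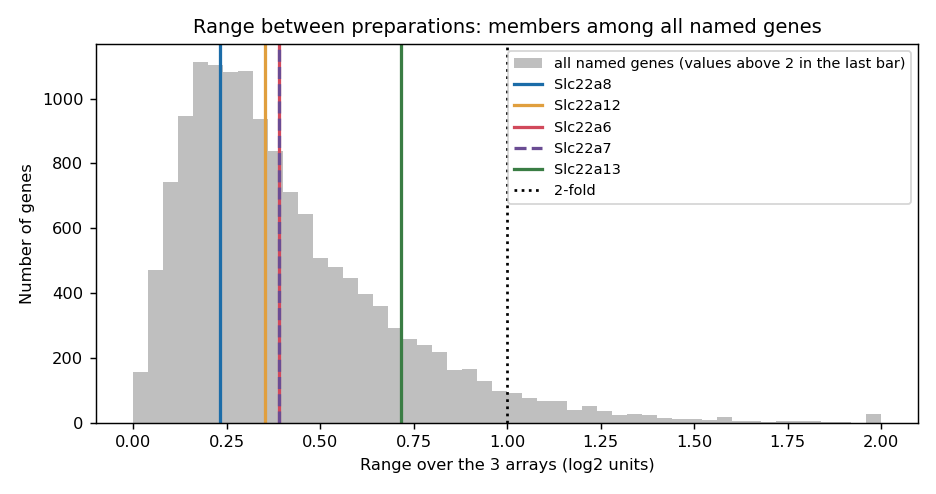
Number of named genes (vertical axis) by their range over the 3 arrays in log2 units (horizontal axis), with a line for each transporter gene and a dotted line at 2-fold. Slc22a8 lies at 0.23, Slc22a12, Slc22a6 and Slc22a7 between 0.35 and 0.39, and Slc22a13 at 0.72, all left of the 2-fold line.

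The genes did not share one order of the arrays. On array 2, Slc22a6 lay 0.25 log2 units below its own mean (deviation -0.25), and the Slc22a8 probe sets had deviations of -0.12 and -0.25. Genes above the 75th percentile of signal, 5538 in all, had a median deviation of -0.09 on array 2, 0.08 on array 1 and 0.01 on array 3, so a low value on array 2 was common among bright genes. The 3' signal of the beta-actin control over its 5' signal, a measure of RNA integrity, was 3.85, 3.28 and 3.66 on arrays 1, 2 and 3. The same ratio for GAPDH was 1.52, 1.52 and 1.40, lowest on array 3, and the part of RNA integrity in these differences was not tested. Of these genes, 7.69% had a lower deviation than Slc22a6 on array 2, and 36.6% had a lower one than the brighter Slc22a8 probe set. Slc22a12 and Slc22a7 instead had their lowest values on array 3, with deviations of -0.20 and -0.21, and values of 0.05 and 0.18 on array 2. Among the bright genes, 89.4% had a lower deviation on array 2 than Slc22a12.

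The order for the brighter Slc22a8 probe set turned with the scaling. After quantile normalization, its lowest array was array 1 (6114), with 6337 on array 2 and 6788 on array 3. Slc22a6 kept array 2 as its lowest under that scaling (4336, against 4987 and 4974), as did the second Slc22a8 probe set (892, against 1049 and 1033). Slc22a12 kept array 3 as its lowest (1842), with array 2 in place of array 1 as the highest (2441).

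**Figure D3:**
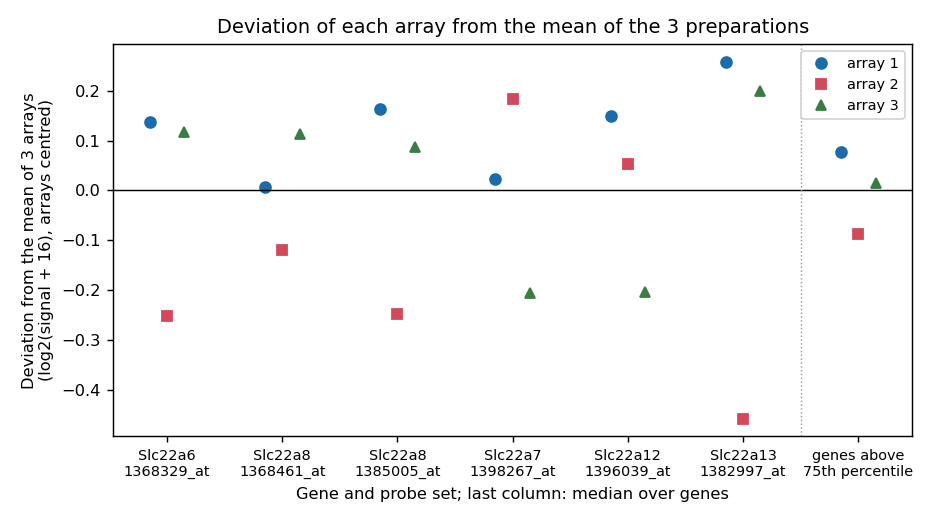
Deviation of each array from the mean of the 3 arrays (vertical axis, log2(signal + 16) with arrays centred) for the 6 probe sets and, in the last column, the median over 5538 genes above the 75th percentile. On this scale array 2 is lowest for Slc22a6, both Slc22a8 probe sets and Slc22a13, and array 3 is lowest for Slc22a7 and Slc22a12, while quantile normalization turned the order of the brighter Slc22a8 probe set.

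Genes that work with the transporters were read from lists by role, of which 28 of 33 listed genes were measured here. On all 3 arrays, 25 of these exceeded the median (61.0% of all named genes did), and 1, Bcl6, had a 2-fold range (4.46% of all named genes). Of the sodium pump, Atp1b1, its beta subunit, gave 9947, 8495 and 8938 on arrays 1, 2 and 3, and Fxyd2, its regulator, gave 6652, 5958 and 6332. All 5 measured genes of dicarboxylate supply lay above the median. Slc13a3, the basolateral sodium-dicarboxylate carrier, gave 7822, 6352 and 7130, and Slc13a2, its brush border relative, gave 1321, 957 and 1153. The mitochondrial dicarboxylate carrier Slc25a10 gave 2569, 1946 and 2467, and the oxoglutarate carrier Slc25a11 gave 2258, 2106 and 2324. Ogdh, a subunit of the dehydrogenase that consumes alpha-ketoglutarate, gave 4179, 3741 and 4502. All 7 measured genes of these 2 lists were lowest on array 2 in the signals as deposited, beside 38.3% of all named genes and 49.6% of those above the 75th percentile. After quantile normalization 4 of the 7 were (not Fxyd2, Slc25a11 and Ogdh), and the share of all named genes under that scaling was not computed. The second Atp1b1 probe set gave 7559, 6548 and 6424 and was lowest on array 3.

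All 5 exit carriers of the brush border lay above the median on each array, beside 61.0% of all named genes. Abcg2, a pump that exports urate and drugs, gave 1318, 1191 and 1422, and Abcc4, a pump for conjugated anions, gave 977, 783 and 681. Abcc2, another conjugate pump, gave 159, 116 and 131. The phosphate carrier relatives Slc17a1 and Slc17a3, which carry urate and organic anions, gave means of 1602 ± 112 and 1372 ± 123 (SD, n = 3).

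Urate and monocarboxylate partners were measured for 5 of 6 listed genes. Of these, 4 lay above the median on all arrays, beside 61.0% of all named genes. Slc2a9, the basolateral urate carrier, gave 82.2, 54.4 and 79.7. Slc5a12, the sodium-lactate carrier whose substrates can be exchanged for urate, gave 2489, 2236 and 2112, while its dimmer probe set gave 552, 453 and 555, so that its probe sets differed in which array was lowest. Slc16a1, a carrier of lactate and other monocarboxylates, gave 1424, 1693 and 2378, and its dimmer probe set gave a mean of 1.44 ± 0.54 (SD, n = 3). Xdh, which makes urate, gave 3147, 1845 and 2307. Uox, the urate-degrading enzyme of liver, gave 27.2, 54.6 and 42.3 and crossed the median.

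Pdzk1, the scaffold protein that binds URAT1 under the brush border, gave 5492, 5311 and 5266, a range of 0.06 log2 units. Its partner Nherf1 gave 3003, 2854 and 3232. Nherf2 gave 30.7, 39.4 and 60.6 and lay above the median on 2 arrays. Its dimmer probe set gave 39.7, 33.2 and 38.0, so the Nherf2 probe sets differed in their order of the arrays. Pdzk1 thus had a narrower range than Slc22a12, though the difference was not tested.

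**Figure D4:**
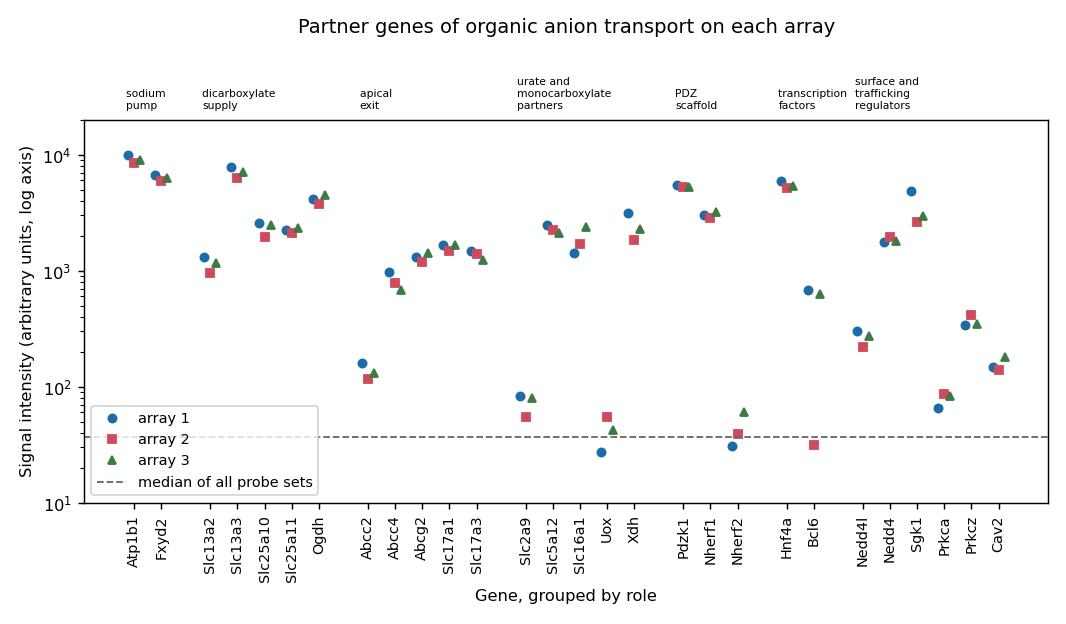
Signal intensity (log axis, arbitrary units) of the 28 measured partner genes on each array, grouped by role, with the mean array median dashed. Bcl6 on array 2 (31.1) stands apart from its other arrays (675 and 634), while Pdzk1 gives nearly equal signals on all 3.

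Among the listed transcription factors, 2 of 4 were measured. Hnf4a, a regulator of proximal tubule genes, gave 5888, 5176 and 5400. Bcl6, a transcriptional repressor that has been described as an activator of the rat OAT1 and OAT3 promoters, gave 675, 31.1 and 634. Array 2 lay below the others for Bcl6 by far more than for the transporters. The range was 3.88 log2 units for Bcl6 against 0.39 for Slc22a6 and 0.23 for Slc22a8. Bcl6 was read by 1 probe set, so its low value on array 2 has no second measurement on these arrays. Leukocytes also express Bcl6, and the 5 measured leukocyte markers summed to 5055, 3082 and 4922 on arrays 1, 2 and 3. Nearly all of that sum was Cd74 (4952, 3011 and 4827), which was lowest on array 2. Ptprc (20.9, 17.9 and 27.2) and Csf1r (51.0, 39.8 and 58.4) were also lowest on array 2. Cd68 was lowest on array 3 (29.1, 11.4 and 5.27) and Cd3d on array 1 (1.77, 2.20 and 4.10). Ptprc, Cd68 and Cd3d lay below the median on every array, and Csf1r lay above it. Whether Bcl6 has a part in the signals of Slc22a6 and Slc22a8 was not tested. Without array 2, the ranges of Slc22a6 and Slc22a8 were 0.02 and 0.11. Leaving out the array on which a gene is lowest narrows its range by construction, so these values carry no information on Bcl6. In the signals as deposited, 49.6% of the genes above the 75th percentile were lowest on array 2.

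Regulators of the transporters at the cell surface were all measured. All 6 lay above the median on each array, beside 61.0% of all named genes. Nedd4l and Nedd4, ubiquitin ligases that promote removal of OAT1 from the membrane, gave means of 265 ± 43.7 and 1846 ± 88.6 (SD, n = 3). Sgk1, a kinase that acts on Nedd4l, gave 4879, 2630 and 2964, with array 1 well above the others. The protein kinase C genes Prkca and Prkcz gave means of 78.2 ± 10.8 and 369 ± 42.1 (SD, n = 3), and the caveolin gene Cav2 gave 156 ± 22.1 (SD, n = 3). Further partner genes had dimmer probe sets than the one used. They gave 164 ± 26.3 for Nherf1, 135 ± 17.2 for Slc25a10, 266 to 360 as means for Hnf4a, 2.49 to 1652 for Nedd4 and 13.0 to 74.0 for Cav2 (n = 3 each).

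Segment markers were set beside the transporters because the transporters differ in their place along the tubule. The sodium-glucose carrier Slc5a2 of the early segment gave 3786, 3155 and 3388. Early segment markers as a list had median deviations of 0.08, -0.13 and 0.03 log2 units on arrays 1, 2 and 3. Slc7a13, an amino acid carrier of the late segment, gave 209, 73.6 and 638, a range of 2.94 log2 units. Late segment markers had median deviations of 0.07, -0.22 and 0.04. Of these 8 markers, 7 exceeded the median on all 3 arrays, beside 61.0% of all named genes. Slc5a1 was among the 7 but barely passed on array 3, with 34.89 against a median of 34.88. The list did not share one order. Slc7a13, Slc1a1 (2611, 1859 and 2107) and Ggt1 (3839, 2564 and 3294) were lowest on array 2. So were Aadat (1136, 958 and 1414) and Slc5a11 (1197, 974 and 1111). Slc5a1 (41.0, 43.1 and 34.9) and Agt (8.48, 22.6 and 7.43) were highest on array 2. Agt lay below the median on every array, and Acsm3 (3803, 3365 and 2677) was lowest on array 3. Slc22a7, placed in the late segment in rats, was highest on array 2 and lowest on array 3. The part of segment content in the transporter signals was not tested.

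The wider Slc22 family has 11 further genes with a probe set of their own here, of which 10 lay above the median on all 3 arrays (61.0% of all named genes did) and 0 had a 2-fold range (4.46% of all named genes). They include the basolateral cation carrier Slc22a2 (1510, 1096 and 1294) and the carnitine carrier Slc22a5 (3591, 2731 and 2882). Slc22a3, a cation carrier of many tissues, gave 0.34, 6.43 and 1.12 and lay below the median on every array. Slc22a25, an orphan relative of the organic anion carriers, gave 3400, 2590 and 2812. Of the 11 genes, 7 were lowest on array 2 as deposited, beside 38.3% of all named genes and 49.6% of the genes above the 75th percentile. After quantile normalization 4 of the 11 were, and the share of all named genes under that scaling was not computed.

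In the RefSeq gene table of the GRCr8 assembly, Slc22a8 and Slc22a6 are neighbours on chromosome 1, and the annotated span of Slc22a25 overlaps both. Signals of these 3 genes could share transcripts if the overlap holds at the probe sets, which was not examined. The next coding gene beyond Slc22a6, Chrm1, a muscarinic receptor of neurons, gave 1.46, 2.98 and 10.1, and the gene after it, Slc3a2, the heavy chain of amino acid exchangers, gave 4549, 4062 and 4377. On the other side, Ust5r, an integral membrane transport protein gene, gave 271, 181 and 310. Slc22a12 also lies on chromosome 1, between Nrxn2, a neuronal adhesion gene (58.4, 111 and 117), and Rps6ka4, a kinase gene (155, 150 and 153). Slc22a7 lies on chromosome 9, where the span of Crip3 overlaps its end, and Slc22a13 on chromosome 8 beside Slc22a14.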

How the data were processed

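Proximal tubule RNA from 3 preparations was hybridised to rat Affymetrix arrays, 1 per preparation, and all 3 arrays form 1 group. The authors deposited 1 linear signal intensity per probe set and array, never below 0. The summarisation software and the scaling between arrays are not given in the sources used here. Probe genes came from the platform annotation. Of 31042 non-control probe sets, 20826 named 1 gene, 436 several and 9780 none, and all 5 transporter genes matched the RefSeq table by gene ID. A gene took its probe set of highest mean signal. Signals were used as deposited for levels, and as log2(signal + 16) centred on the array median for ranges and deviations. A gene was counted above the median if it passed it on all 3 arrays, and as 2-fold if its range reached 1 log2 unit. With 1 group and no control, no test between conditions was made, and the number of arrays limits the precision. Nothing says whether the preparations came from separate animals, so the SD may be partly technical. The transporter genes and all lists were chosen with earlier results of these data known. All listed genes could be named, with all Slc22 genes and the 3 coding genes on each side of a transporter. Genes of similar pattern are not named, since 3 arrays cannot separate likeness from chance. The range count was tested on simulated data of genes above the array median only, which does not cover signals as low as those of Slc22a7 and Slc22a13. Python 3.11.15, numpy 2.4.6, pandas 2.3.3 and matplotlib 3.10.9 were used.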

Additional observations from a re-analysis of the deposited data

How the results depend on the processing

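The count of transporter genes above the array line was 3 of 5 at the median and 4 with the line at the 25th percentile. It was 3 under each other alternative run. Of all named genes, 61.0% passed at the median, 76.0% at the 25th percentile and 36.4% at the 75th percentile. With 1 added before the log instead of 16, the transporter genes with a 2-fold range numbered 1 (Slc22a13) instead of 0, while 23.0% of all named genes then passed. The partner genes with a 2-fold range numbered 2 instead of 1 under that setting. With 1 array left out they numbered 0 to 1, beside 1.93% to 2.14% of all named genes. The count was 0 without array 2, which removes the Bcl6 call. Partner genes above the median numbered 24 (of 26 measured) to 27 (of 28), beside 60.6% and 62.2% of all named genes under those settings. Lines at the 25th and 75th percentiles were passed by 28 and 21, beside 76.0% and 36.4% of all named genes. The mean signals of the 6 probe sets moved by less than their SD in all 30 alternatives run. Leaving out 1 of 3 arrays cannot move a mean by as much as its SD, so only the alternatives with another scaling were informative. The ranges moved by more than that in 10 alternatives against 32 that did not, the 10 being either a left-out array or another added constant for Slc22a7 and Slc22a13. Signals near or below the array median, as for those 2 genes, carry the least information, and without detection calls they cannot be separated from background. No paired analysis was possible because there is only 1 group.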
